A study of Mus musculus with 6 samples.

Results

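The 10 genes described here are read as marks of dendritic cells: Flt3, Zbtb46, Xcr1, Clec9a, Wdfy4, Cd209a, Clec10a, Ccr7, Fscn1 and Ccr9. They were chosen by name from the 19848 genes of the deposited single-cell RNA table, and all 10 were found in it. The authors' annotation of these brain immune cells has 10 classes, none of them named for dendritic cells, so the question was in which classes cells with these genes lie and whether their share differs between groups. Cells with single genes of the set were spread over many classes, and most cells with Fscn1 or Wdfy4 were microglia. By their RNA as a whole, 2 clusters of cells carried several of the genes: one of 238 cells, 81.9% of them with Cd209a and 61.3% with Clec10a, lay mainly in the class named Ly6CLow, and one of 28 cells, 100% with Ccr9 and 92.9% with Flt3, lay mainly in the class named BCells. Their shares of all cells did not differ between control and antibiotic pools beyond the spread of the pools.

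The cells were immune cells enriched by Percoll gradient from papain-digested whole brains of perfused female C57BL/6 mice, 12 weeks (young) or 72 weeks (aged) old. Mice of each age received either vehicle, which left the gut microbiota intact (control), or antibiotics, which depleted it. The 24 mice, 6 per group, were combined into 12 pools, 3 in each of the 4 groups (young control, young antibiotic, aged control, aged antibiotic), so that the pool is the replicate and a pool blends mice. Each cell was read by CITE-seq, in which RNA and the oligonucleotide tags of bound antibodies are sequenced from the same single cell. Young pools were loaded in 1 well and aged pools in another, so age and well cannot be told apart. The hashtags that told pools apart were numbered 1 to 3 for controls and 4 to 6 for antibiotics at either age, so treatment cannot be told apart from the hashtag.

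Dendritic cells take up antigen and present it on class II molecules to T cells. Conventional dendritic cells depend on the growth factor receptor Flt3 and carry the transcription factor Zbtb46. One line, cDC1, carries Xcr1, Clec9a and Wdfy4 and presents antigen of dead cells to CD8 T cells, and another, cDC2, carries lectins such as Cd209a and Clec10a. Either line can mature, taking on the lymph-node homing receptor Ccr7 and the actin-bundling protein Fscn1, while plasmacytoid dendritic cells make type I interferon and, in the mouse, many carry the chemokine receptor Ccr9. In the brain such cells are known mainly from the meninges and choroid plexus rather than the parenchyma.

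The surface of the same cells was read through antibody tags, each identified by a 15-base barcode in the deposited antibody reference. The barcodes below belong to the antibodies that bear most on dendritic cells: XCR1 for cDC1, CD11c and the class II molecule I-A/I-E for dendritic cells at large, Siglec-H for plasmacytoid cells, and CD64, a receptor of macrophages and monocytes. They are printed in capitals throughout, since the whole barcode is the identifier.
XCR1: TCCATTACCCACGTT
CD11c: GTTATGGACGCTTGC
I-A/I-E: GGTCACCAGTATGAT
Siglec-H: CCGCACCTACATTAG
CD64: AGCAATTAACGGGAG

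Promoters of 8 of the 10 genes were found in the RefSeq table of build GRCm38.p6, which is the mm10 build named in the submitters' processing notes. The 300 bases from 250 before to 50 after the start are shown for the genes that lead the 2 groups, Cd209a (chr8:3748935-3749234, minus strand) and Ccr9 (chr9:123766961-123767260, plus strand), 5′ to 3′ in the direction of the gene. Capitals mark a match to the 10-base ETS-IRF composite motif, at which ETS and IRF factors bind side by side, searched on both strands.
Cd209a: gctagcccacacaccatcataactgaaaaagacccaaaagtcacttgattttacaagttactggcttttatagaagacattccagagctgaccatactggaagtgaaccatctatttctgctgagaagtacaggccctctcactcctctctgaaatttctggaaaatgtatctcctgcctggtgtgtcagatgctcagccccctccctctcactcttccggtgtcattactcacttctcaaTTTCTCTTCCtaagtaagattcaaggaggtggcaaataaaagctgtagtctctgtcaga
Ccr9: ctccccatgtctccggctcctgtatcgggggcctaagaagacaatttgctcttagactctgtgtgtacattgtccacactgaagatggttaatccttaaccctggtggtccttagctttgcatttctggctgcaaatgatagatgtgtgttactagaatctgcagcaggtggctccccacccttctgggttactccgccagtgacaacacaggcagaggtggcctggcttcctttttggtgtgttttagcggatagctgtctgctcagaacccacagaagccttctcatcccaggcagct
The match in the Cd209a promoter lay on the opposite strand, with its first base at position -9 from the start. Of the 8 promoters it was the only one with this motif, which 892 of all 32851 promoters of that length held (2.72%). The AP-1 motif was found in 1 of the 8, that of Zbtb46, and in 7.81% of all promoters. The Zbtb46 stretch (chr2:181424339-181424638, minus strand) lies within the span of the gene (chr2:181371009-181493262), not at its outermost start. The same holds for Wdfy4. The genes themselves lie apart in the genome, except that Ccr9 (chr9:123767211-123783457) and Xcr1 (chr9:123852315-123862029) are close to each other.

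The data set held 13052 cells, 3263 in each group, a number whose choice is not described in the sources used here, so shares refer to the deposited cells. The pools had 760 to 1590 cells each, with median raw totals of 6512 to 7226.5 UMIs per cell. Median antibody totals were 1186 to 1420 tags per cell in young pools and 186 to 361 in aged pools. The RNA values were SCTransform-corrected UMI values, and 2473 cells had more genes above 0 after correction than were detected in the raw data. All cells were labelled singlets by the authors, 59 cell barcodes occurred in both wells, and 1447 cells had under 2000 raw UMIs. Corrected values of shallow cells need care: Fscn1 was above 0 in 61.4% of the 267 cells other than microglia with under 1000 raw UMIs but in 0.662% of the 151 cells with 1000 to 2000.

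By class, Flt3, the receptor for the growth factor of dendritic cells, was above 0 in 21.3% of the 634 Ly6CLow cells. The share was 12.3% of 389 Ly6CHigh cells, 7.91% of 506 BAM cells, 7.60% of 487 BCells and 0.521% of 9403 microglia. Over the 12 pools the mean Flt3 value was 0.286 ± 0.103 (SD, n = 12) in Ly6CLow and 0.169 ± 0.0966 in Ly6CHigh, the next class, and that gap exceeded the larger of both SDs. The Ly6CHigh, BCells and BAM classes could not be ordered, since the gaps between them were smaller than the SDs. Of all 333 cells with Flt3, 135 were Ly6CLow (40.5%).

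Zbtb46, a transcription factor largely kept to conventional dendritic cells among immune cells, was above 0 in 9.15% of Ly6CLow cells and in at most 2.12% of any other class. Its mean was 0.103 ± 0.0628 (SD, n = 12 pools) in Ly6CLow, which did not stand beyond the SD of the next class, ILCs. In number, however, 105 of the 192 cells with Zbtb46 were microglia (54.7%), the class that makes up most of the data.

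The cDC2 genes were found mainly in Ly6CLow and BAM cells. Cd209a, a C-type lectin related to DC-SIGN, was above 0 in 30.0% of Ly6CLow cells, 10.1% of BAM cells and 0.532% of microglia. Its mean was 3.48 ± 1.72 (SD, n = 12 pools) in Ly6CLow and 0.492 in Ly6CHigh, a gap larger than the SDs. Clec10a, a lectin that binds galactose-type sugars, was above 0 in 29.4% of BAM and 25.6% of Ly6CLow cells. Its means of 1.14 ± 0.565 in BAM and 0.967 ± 0.383 in Ly6CLow did not differ beyond their SD, and of all 456 cells with Clec10a 162 were Ly6CLow and 149 BAM.

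The cDC1 genes Xcr1, a chemokine receptor, and Clec9a, a receptor for exposed actin of dead cells, were rare everywhere. Xcr1 was above 0 in 25 cells of the whole data set, of which 12 were microglia and 5 Ly6CLow. Clec9a was above 0 in 10 BCells, 9 Ly6CLow cells and 8 microglia. Neither gene was above 0 in any of the 728 CD8+ cells, which allows a share of up to 0.412% of cells with a UMI, in counting error only, and does not limit the share that express them. Wdfy4, needed for cross-presentation by cDC1, was no mark of 1 class here: it was above 0 in 33.1% of BCells, 31.5% of Ly6CLow, 27.3% of Ly6C+Ly6G+ and 18.0% of microglia, and its means in Ly6CLow and BCells did not differ beyond their SD.

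The genes of mature dendritic cells pointed to other classes. Ccr7 was above 0 in 56.3% of BCells, against 9.35% of CD4+, 8.10% of CD8+ and 4.42% of Ly6CLow cells, and its mean in BCells (2.22 ± 0.838, SD, n = 12 pools) stood above the next class by more than the SD. Fscn1 was above 0 in 68.4% of microglia, which held 94.5% of all cells with it. Ccr9, the plasmacytoid gene, was above 0 in 5.54% of BCells and 3.64% of ILCs, with means that did not differ beyond their SD. None of the 10 genes was above 0 in the 9 NKCells.

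**Figure D1:**
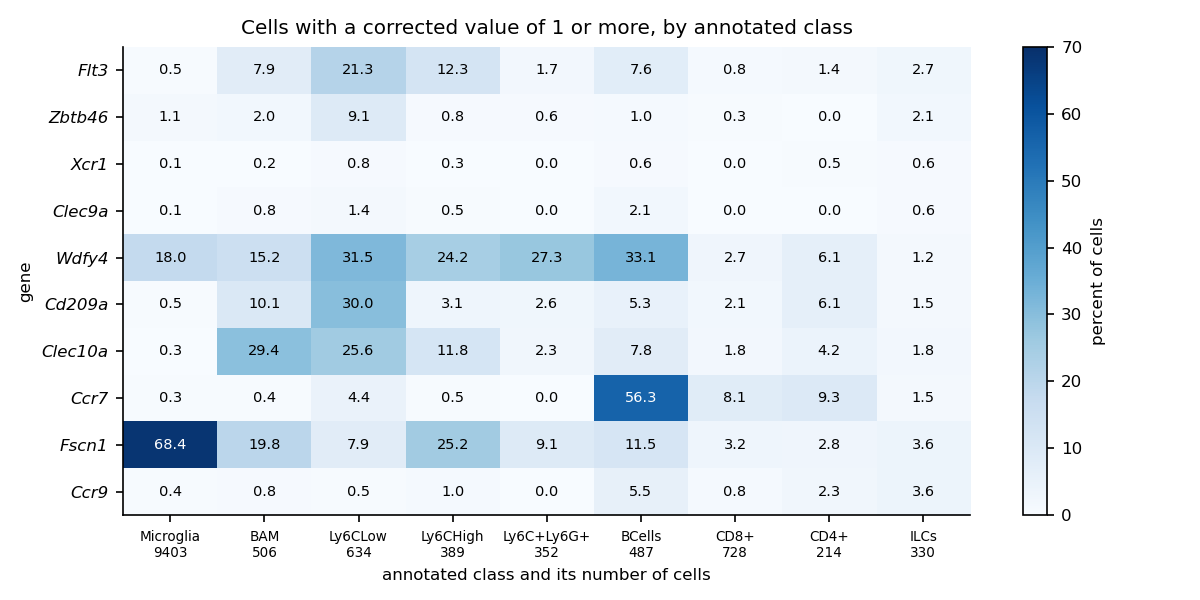
Percent of cells with a corrected value of 1 or more for each gene (rows) in each annotated class (columns, with its number of cells, NKCells left out). Flt3, Zbtb46 and Cd209a have their highest share in Ly6CLow, Ccr7 in BCells and Fscn1 in microglia.

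Depth differs between classes, with medians of 8926.5 raw UMIs in Ly6CLow, 7096.5 in CD8+ and 5070 in BCells. With each cell thinned to 2000 corrected UMIs, Cd209a was above 0 in 24.9% of Ly6CLow, 6.52% of BAM and 1.51% of CD8+ cells, and Flt3 in 6.31% of Ly6CLow against 3.49% of BCells. Zbtb46 was then above 0 in 2.52% of Ly6CLow cells. This thinning acted on corrected values and so did not even out raw depth. Fscn1 in Ly6CHigh cells was above 0 in 12.9% when thinned but in 2.38% of the cells with at least 2000 raw UMIs. Among cells of at least 2000 raw UMIs, Flt3 was above 0 in 26.0% of Ly6CLow and 18.7% of Ly6CHigh. Deep cells of a class that should lack these genes also carried them: of the 51 CD8+ cells with over 16000 raw UMIs 23.5% had Cd209a and 23.5% had Clec10a, against 0.443% and 0.148% of the other 677.

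Several pairs of these genes met in the same cells outside microglia more often than their single frequencies would give, and others less often. Cd209a and Clec10a were both above 0 in 200 cells, where independence over the 3649 cells would give 37.9. Flt3 and Cd209a met in 136 cells (25.0 if independent) and Zbtb46 and Cd209a in 52 (7.65 if independent). Flt3 met Ccr9 in 27 cells (4.75 if independent), and Xcr1 met Clec9a in 4 (0.0962 if independent). In contrast, Flt3 met Ccr7 in 18 cells and Fscn1 in 16, fewer than the 30.4 and 29.3 that independence would give. Ccr7 and Fscn1, the genes of mature cells, met in 26 (40.3 if independent). Cd209a met Ccr7 in 19 (34.3 if independent) and Clec10a met Ccr7 in 24 (46.1 if independent). These counts describe the cells and share their libraries and depth, so no test was made.

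The 3649 cells other than microglia were clustered on RNA without immunoglobulin genes, giving 24 clusters, and clusters were named from fixed lists of marker genes. The cluster called cDC2-like here held 238 cells, 140 young and 98 aged, with cells in all 12 pools. Its leading genes were Ccl17, Cd209a, Retnla, Mgl2, Tnfsf9, Tnip3, Mmp12, Clec4b1, Olfm1 and Fgfr1, and 6 of 8 cDC2 markers were above 0 in over 10% of its cells. The authors' annotation had put 178 of them in Ly6CLow (74.8%), 19 in CD4+, 12 in BCells, 11 in CD8+ and 8 in Ly6CHigh. All 238 lay in 1 cluster of the authors' own clustering, number 3, which holds 772 cells in all.

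Cells of the cDC2-like cluster carried most of the lectin and lineage genes of the Ly6CLow class. Since clustering used every gene, the following values describe the cluster and are no test. Cd209a was above 0 in 81.9% of its cells and in 8.33% of the other 456 Ly6CLow cells, with means of 9.56 and 0.509. Clec10a was above 0 in 61.3% against 10.3%, Flt3 in 46.2% against 9.87%, Zbtb46 in 20.2% against 2.85% and Wdfy4 in 56.7% against 21.5%. Xcr1 (2.52% against 0.439%), Clec9a (1.68% against 1.32%), Ccr7 (7.14% against 5.04%) and Ccr9 (0.840% against 0.439%) were rare in both. Fscn1 was above 0 in 1.68% of the cluster and 10.1% of the other cells, of which 27.6% had under 2000 raw UMIs. Those other Ly6CLow cells were a mixture. Of them, 99 lay in an unnamed cluster led by Ttr and Enpp2, with a median of 1084 raw UMIs. A further 94 lay in the cluster named monocyte and 74 in an unnamed one led by Spp1. The clusters named NK and innate lymphoid held 12 and 40, and an unnamed one led by Gm20186 held 40.

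Other genes of antigen presentation were high in the same cells. Of the 11 genes listed as class II and pan-dendritic, 9 had a mean over 2-fold higher in the cDC2-like cluster than in the other Ly6CLow cells, against 4.88% of 9176 genes. The invariant chain Cd74 had means of 308 and 67.9, the class II beta chain H2-Ab1 111 and 25.4, and the class II transactivator Ciita 1.47 and 0.423. Of the cDC2 list 3 of 9 genes were over 2-fold higher, among them the lectin Mgl2 (14.3 against 0.893) and the transcription factor Irf4 (0.466 against 0.112). Of the cDC1 list 2 of 11 were, Batf3 (0.676 against 0.213) and Naaa (1.90 against 0.474), while Irf8, a factor of cDC1, was lower (0.437 against 2.21). Of the mature list 1 of 12 was, the chemokine Ccl17 (4.03 against 0.162), and of the plasmacytoid list 0 of 9. The cDC2 list as a whole was not raised, with a median log2 ratio of 0.05 against 0.11 over all genes. Of its 9 genes 4 were lower in the cluster: Sirpa (0.992 against 1.73), Klf4 (2.60 against 3.16), Itgam (1.34 against 1.61) and Cd7 (0.101 against 0.338).

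Markers of other cells were lower in part and higher in part. Cx3cr1, a receptor of microglia and monocytes, had a mean of 0.920 in the cluster and 3.63 in the other Ly6CLow cells, and Ace, a gene of Ly6C-low monocytes, 0.0126 and 1.13. The monocyte chemokine receptor Ccr2 was higher, with 5.66 against 1.88, as were the border macrophage genes Mrc1 (1.25 against 0.447) and Cd163 (0.239 against 0.0877). The cluster was deep, with a median of 15185.5 raw UMIs against 6082.5 in the other Ly6CLow cells, and the T cell gene Cd3d was above 0 in 19.3% of its cells against 4.17%, with Cd3g and Trac also higher. All cells are labelled singlets and no doublet caller was run, so the part of doublets in these values was not tested.

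The cluster called plasmacytoid-like held 28 cells, 20 young and 8 aged, from 10 pools, with a median of 10642.5 raw UMIs. Its leading genes were Cox6a2, Klk1, Ccr9, Cd300c and P2ry14, and all 10 plasmacytoid markers were above 0 in over 10% of its cells. The authors' annotation had put 23 of them in BCells (82.1%), 3 in ILCs and 2 in Ly6CHigh, and 24 lay in the authors' cluster 11, which holds 25 cells. Markers of other cells were present too. The summed mean of the 6 neutrophil markers ran from 2 to 443 over young antibiotic pools and reached at most 2 in the other groups. That of the T cell markers ran from 1.67 to 14 over young control and from 0 to 0.333 over young antibiotic pools. Over the pools of all groups, that of the 8 monocyte markers ran from 23 to 99 and that of the 6 B cell markers from 6.33 to 32.5. The part of RNA from these cells in the cluster and its shares was not tested. The name of the deposited gate for the BCells class includes B220, a surface molecule that plasmacytoid dendritic cells share with B cells.

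Ccr9 was above 0 in 100% of the plasmacytoid-like cells and in 0.862% of the other 464 BCells. Flt3 was above 0 in 92.9% against 3.45%, Clec10a in 71.4% against 4.53%, Cd209a in 46.4% and Clec9a in 32.1%. Ccr7, the gene that marked BCells as a class, was above 0 in 3.57% of them and in 58.8% of the other BCells. Zbtb46 and Xcr1 were at 0, and 0 of 28 cells allows a share of up to 10.7% of cells with a UMI. Of the 13 listed plasmacytoid genes, 12 had a mean over 2-fold higher than in the other BCells, against 19.9% of 9338 genes, among them the surface lectin Siglech (15.3 against 0.560) and the transcription factor Tcf4 (13.2 against 1.48).

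**Figure D2:**
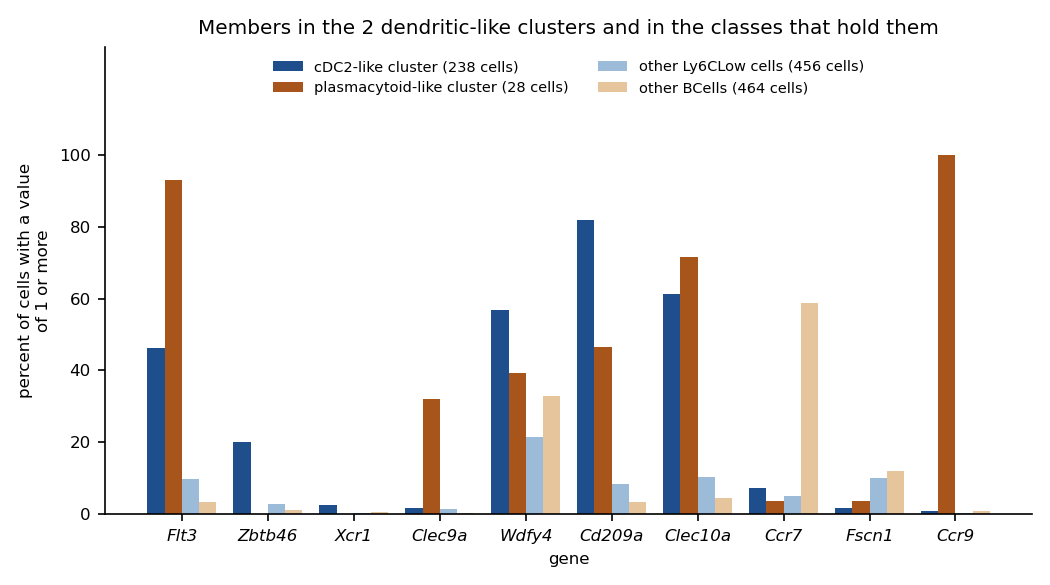
Percent of cells with a corrected value of 1 or more for each gene in the cDC2-like cluster (238 cells), the plasmacytoid-like cluster (28), the other Ly6CLow cells (456) and the other BCells (464). Cd209a and Zbtb46 are highest in the cDC2-like cluster, Ccr9 and Flt3 in the plasmacytoid-like cluster and Ccr7 in the other BCells.

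A cluster led by genes of mature dendritic cells appeared only at the finer resolution of 2. It held 46 cells, 17 young and 29 aged, led by Ccl22, Il12b, Tnip3, Tbc1d4, Cacnb3, Ccr7, Fscn1 and Il4i1, and 35 of them were Ly6CLow. Ccr7 was above 0 in 6 of these cells, Fscn1 in 34.8% and Flt3 in 21.7%. The cells were shallow, with a median of 1669 raw UMIs and 69.6% under 2000, so that their values rest on few molecules. Microglial genes were widespread in them: Tmem119 was above 0 in 89.1%, P2ry12 in 87.0% and Sparc in 91.3%, against 46.9%, 49.1% and 53.7% of the other Ly6CLow cells. The summed mean of the 6 microglia markers ran from 7.75 to 25 over the pools, and that of the 9 mature dendritic markers from 0 to 49.5. The part of microglial RNA in this cluster was not tested. At resolution 2 the marker lists also gave the plasmacytoid name to another cluster, of 43 cells, 36 of them BCells. Its leading genes were Vpreb3, Fam129c and Iglc1 and included the B cell marker Ms4a1, so a name from the lists alone can mislead.

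No cluster was led by Xcr1 or Clec9a at any of the 3 resolutions tried. By a per-cell call of at least 2 of Xcr1, Clec9a and Wdfy4, 23 cells were cDC1-called, of which 7 were microglia, 7 Ly6CLow and 5 BCells. Cells with Ccr7 and Fscn1 together numbered 45, and 19 of them were microglia and 13 BCells. Outside microglia such cells numbered 26, where independence would give 40.3. Cd209a with Flt3, Zbtb46 or Clec10a called 249 cells, of which 161 were Ly6CLow and 164 lay in the cDC2-like cluster. Ccr9 with 2 further plasmacytoid genes called 32 cells, 25 of them BCells, and 27 lay in the plasmacytoid-like cluster.

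At least 3 of the 10 genes were above 0 in 325 cells, called dendritic-called here. Of these, 159 were Ly6CLow (48.9%), 52 BCells, 46 microglia and 31 BAM. They included 151 of the 238 cDC2-like cells (63.4%) and 27 of the 28 plasmacytoid-like cells (96.4%). Called cells were deep, as the call needs: in Ly6CLow their median was 14159 raw UMIs against 6340 in the rest. The genes outside the set with the largest ratio of called to other Ly6CLow cells were Tnfsf9, H2-Oa, Ccl22, Il12b, H2-DMb2, Mgl2, Lmo1, Olfm1, Avpi1 and Dpp4, with log2 ratios from 3.03 to 2.32.

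The cDC2-like cluster had a similar share of all cells in each treatment arm. In young control pools it held 24, 20 and 22 cells, or 1.86%, 2.63% and 1.82% of the pool, and in young antibiotic pools 29, 19 and 26 cells, or 3.73%, 2.12% and 1.64%. The first young antibiotic pool was the highest of all 12, and the other 2 lay within or below the control range. In aged control pools it held 10, 13 and 26 cells, or 1.13%, 1.24% and 1.96%, and in aged antibiotic pools 16, 15 and 18, or 1.73%, 1.08% and 1.89%. The groups overlapped at both ages.

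The group means were 2.10% ± 0.459 (SD, n = 3) for control and 2.50% ± 1.09 for antibiotic pools of young mice, and 1.44% ± 0.450 and 1.57% ± 0.428 for those of aged mice. Numbers of cells in the 24 clusters and in microglia, 25 sets in all, entered edgeR's quasi-likelihood fit. With antibiotics the log2 change of the cDC2-like cluster was 0.24 (SE 0.49, adjusted p = 0.996) in young and 0.10 (SE 0.50, adjusted p = 1) in aged pools, and the 2 changes differed by -0.14 (SE 0.70, adjusted p = 0.915). In these contrasts 0% of the 25 sets were called, with 1 set at an unadjusted p under 0.05 in young and 0 in aged. The exact two-sided permutation tests of the shares gave p = 0.7 in young and p = 1 in aged, where 3 pools against 3 cannot give a p below 0.1.

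Aged control pools had a lower mean share than young control pools, by -0.52 on the log2 scale (SE 0.50, adjusted p = 0.456, edgeR), and the pools overlapped. In that contrast, which is also one of wells, 24% of the 25 sets were called. Markers of other cells in the cluster differed between groups. The summed mean of the T cell markers ran from 0.65 to 3.23 over young control pools, 1.88 to 5.42 over young antibiotic, 1.42 to 6.38 over aged control and 3.31 to 9.93 over aged antibiotic pools. Of the 7 T cell markers 3, 5, 5 and 7 were above 0 in over 10% of the cells in that order, and none was at 0. Neutrophil markers lay apart by age, with sums of 1.14 to 1.41 over the young and 0.133 to 0.5 over the aged pools. Markers of NK and innate lymphoid cells lay apart by arm in the young, with 0.2 to 1.23 in control and 1.74 to 2.54 in antibiotic pools, and overlapped in the aged. The part of RNA from these cells in the shares was not tested.

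Within the Ly6CLow class, the share that lay in the cDC2-like cluster did not overlap between the ages. It was 36.2%, 41.5% and 36.0% in young control and 48.8%, 42.4% and 40.8% in young antibiotic pools. In aged control pools it was 7 of 35 cells in the first pool and 12.5% and 24.4% in the others, and in aged antibiotic pools 20.8%, 11.6% and 24.0%. All 6 young pools lay above all 6 aged pools, while the treatment arms overlapped in the aged. The means were 37.9% ± 3.10 (SD, n = 3), 44.0% ± 4.24, 19.0% ± 6.03 and 18.8% ± 6.45 in the same order. The exact two-sided permutation test gave p = 0.1 for age in either arm, the smallest p possible, p = 0.2 for antibiotics in young and p = 0.9 in aged pools. This share was looked at after the values by pool were seen. Of the clusters that held other Ly6CLow cells, those led by Ttr and by Gm20186 were 78.4% and 94% aged as a whole. Their part in this share was not tested.

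Depth moved with age in this class, since 12 of 274 young Ly6CLow cells (4.38%) and 114 of 360 aged ones (31.7%) had under 2000 raw UMIs. Among cells of at least 2000 raw UMIs the mean shares were 40.1% and 45.9% in control and antibiotic pools of young mice and 28.5% and 27.2% in those of aged mice, still without overlap between the ages (exact permutation p = 0.1 in either arm). The aged controls were lower than the young by -18.9 percentage points over all cells and by -11.5 over the deeper ones.

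Plasmacytoid-like cells were few in each pool. Young control pools held 3, 3 and 3 of them and young antibiotic pools 3, 1 and 7. Aged control pools held 0, 2 and 1, and aged antibiotic pools 3, 0 and 2. The change with antibiotics was 0.18 on the log2 scale (SE 0.88, adjusted p = 0.996, edgeR) in young and 0.76 (SE 1.13, adjusted p = 1) in aged pools. Aged control pools were lower than young control pools by -1.52 (SE 1.05, adjusted p = 0.332, edgeR), with no overlap and an exact permutation p of 0.1. With 1 pool left out these values ran from -0.21 to 0.54 in young (the lowest without the third antibiotic pool), from -0.01 to 1.66 in aged (without the first antibiotic and the second control pool) and from -2.41 to -1.07 for age (without the second and the first aged control pool).

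**Figure D3:**
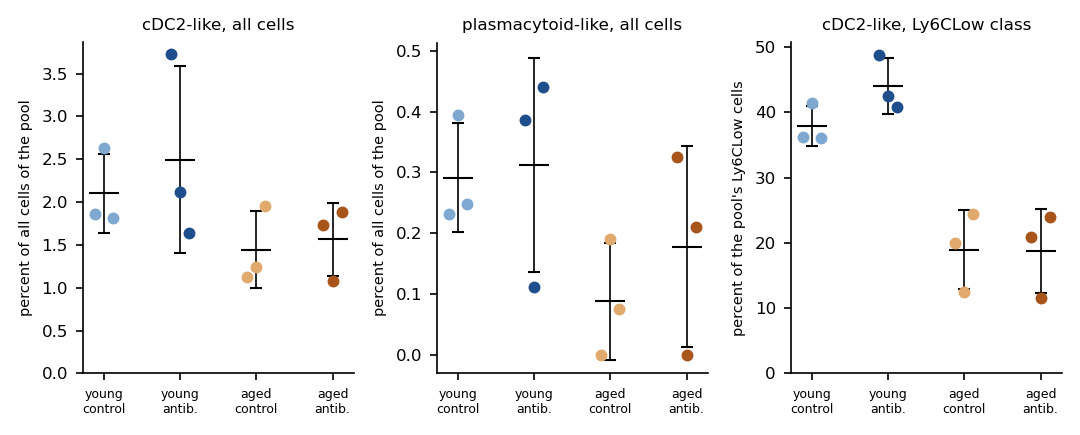
Share of each pool held by the cDC2-like cluster (left, percent of all cells), the plasmacytoid-like cluster (middle, percent of all cells) and of the pool's Ly6CLow cells by the cDC2-like cluster (right); points are pools, the bar is the mean and the whiskers 1 SD (n = 3). The 4 groups overlap in the left panel, and young pools (36.0% to 48.8%) lie above aged pools (11.6% to 24.4%) in the right panel.

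Dendritic-called cells made up 2.76% ± 0.714 (SD, n = 3) of control and 2.88% ± 0.558 of antibiotic pools in the young, and 2.15% ± 1.09 and 2.08% ± 0.384 in the aged. The third pool of young antibiotic mice held 55 of them and the third of aged controls 45, the highest numbers of the 12. There were 0 to 7 cDC1-called cells in a pool, too few to compare.

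Gene levels were then compared between pools in the Ly6CLow class, of which the pools held 33 to 86 cells. For a class mean, fewer dendritic cells in the class and less RNA per cell cannot be told apart. Of the 10 genes 7 passed the filter (mean of at least 0.05 over the pools), and Xcr1, Clec9a and Ccr9 did not. None of the 7 was called with antibiotics by limma (Benjamini-Hochberg over 8613 genes), in young, in aged, over both ages or in the difference, where 0% of the genes tested were called. In each of these contrasts 1 of the 7 had an unadjusted p under 0.05, as had 365 to 535 of all genes.

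Clec10a had the lowest unadjusted p of the set in young pools. Its mean in Ly6CLow cells was 1.52, 1.68 and 1.28 in young control and 0.744, 1.06 and 0.837 in young antibiotic pools. It was 0.429, 0.889 and 1.12 in aged control and 0.812, 0.478 and 0.760 in aged antibiotic pools. All young antibiotic pools lay below all young control pools, as did 10.7% of all genes in either direction, and the aged arms overlapped. The change with antibiotics was -0.74 on the log2 scale (SE 0.28, unadjusted p = 0.0184, adjusted p = 1, limma) in young and -0.17 (SE 0.28, adjusted p = 0.954) in aged pools, and the 2 changes differed by 0.57 (SE 0.40, adjusted p = 0.990).

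In aged pools the lowest unadjusted p was that of Cd209a. Its mean was 4.33, 6.49 and 3.36 in young control and 4.49, 5.06 and 4.84 in young antibiotic pools. It was 2.66, 1.72 and 4.50 in aged control and 1.77, 0.899 and 1.70 in aged antibiotic pools. The aged arms touched, since the highest aged antibiotic pool exceeded the lowest aged control pool. The change was 0.07 (SE 0.30, adjusted p = 1, limma) in young and -0.95 (SE 0.30, unadjusted p = 0.0053, adjusted p = 0.725) in aged pools, and the 2 changes differed by -1.02 (SE 0.42, adjusted p = 0.979).

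Flt3 and Zbtb46, the genes shared by conventional dendritic cells, were not called with antibiotics at either age. Flt3 was 0.397, 0.463 and 0.180 in the control and 0.186, 0.273 and 0.347 in the antibiotic pools of young mice, and 0.314, 0.0972 and 0.337 against 0.208, 0.333 and 0.300 in those of aged mice. Its change with antibiotics was -0.27 (SE 0.38, adjusted p = 1, limma) in young and 0.25 (SE 0.38, adjusted p = 0.950) in aged pools. Zbtb46 was 0.150 ± 0.0184 (SD, n = 3), 0.146 ± 0.0838, 0.0771 ± 0.0247 and 0.0387 ± 0.0229 in the 4 groups, controls first and young before aged. In aged mice the gap of Zbtb46 between the arms exceeded both SDs, the pools overlapped and the change was -0.54 (SE 0.37, adjusted p = 0.860, limma).

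Wdfy4 was 0.616 ± 0.0741 (SD, n = 3), 0.635 ± 0.161, 0.400 ± 0.192 and 0.320 ± 0.138 in the same order. Ccr7 rested on 1 pool per group in 3 of the groups: it reached 3.09 in the second young antibiotic pool, against 0.0465 and 0.122 in the others of that group. Fscn1 reached 0.697 in the same pool, against 0 and 0.0408. Xcr1 was above 0 in 4 of the 12 pools and Ccr9 in 3, with means of at most 0.143.

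**Figure D4:**
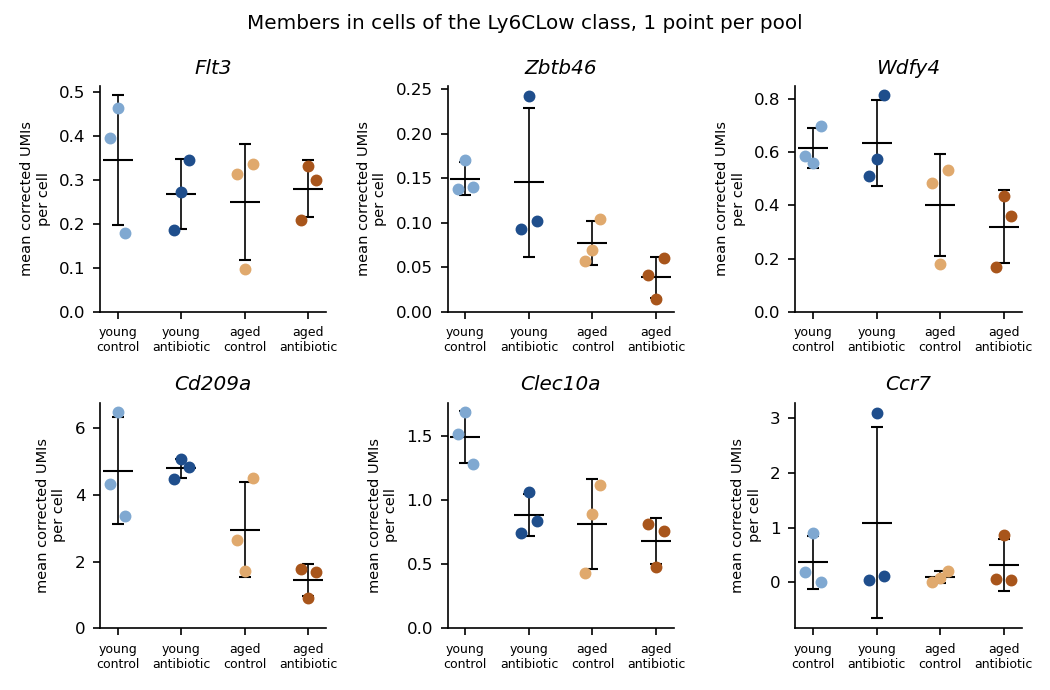
Mean corrected UMI value per cell of 6 genes in the Ly6CLow class; each point is a pool, the bar is the mean and the whiskers 1 SD (n = 3). Clec10a pools of young antibiotic mice (0.744 to 1.06) lie below those of young control mice (1.28 to 1.68), and 1 young antibiotic pool carries most of the Ccr7 in its group.

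Between aged and young controls, 6 of the 7 tested genes had lower estimates and none of the 7 was called, with 2 at an unadjusted p under 0.05 (limma), where 0.755% of 8613 genes were called. The change was -0.93 for Clec10a (SE 0.28, adjusted p = 0.128), -0.72 for Cd209a (SE 0.30, adjusted p = 0.251), -0.67 for Wdfy4 (SE 0.35, adjusted p = 0.348), -0.66 for Zbtb46 (SE 0.37, adjusted p = 0.389) and -0.45 for Flt3 (SE 0.38, adjusted p = 0.589). Ccr7 had -0.91 (SE 1.15) and Fscn1 0.75 (SE 0.73, adjusted p = 0.645). The share of shallow cells also differed between the ages, as given above, and its part in the Fscn1 change was not tested. The pools of Clec10a, Wdfy4, Zbtb46 and Fscn1 did not overlap, as for 20.6% of all genes. This contrast shares its young control pools with that of antibiotics in young mice. The median over all genes was -0.21. The number of genes called by age was 65, between 19 and 297 with 1 pool left out, the latter without the third aged control pool. Without that pool Clec10a (-1.19, adjusted p = 0.0322) and Cd209a (-1.07, adjusted p = 0.0474) were called. Without the first aged control pool Clec10a was -0.55 (adjusted p = 0.435), and Cd209a was -0.39 (adjusted p = 0.592) without the second and -0.47 (adjusted p = 0.490) without the second young control pool.

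Within the cells of the cDC2-like cluster alone the same contrast gave -0.32 for Clec10a (SE 0.25, adjusted p = 0.801) and 0.14 for Cd209a (SE 0.17, adjusted p = 0.892). Of the wider lists in Ly6CLow cells, 10 of 11 class II and pan-dendritic genes had lower means in aged controls, with a median of -0.55, and 1 was called, Kit, which was higher. Batf3, a factor of cDC1, was called lower, with means of 0.555 ± 0.0440 (SD, n = 3) in young and 0.165 ± 0.10 in aged controls (-1.62, SE 0.33, adjusted p = 0.028, limma). It was 1 of 9 cDC1 genes tested, and the cDC2, mature and plasmacytoid lists had no call among 9, 11 and 9 genes. In cells of at least 2000 raw UMIs, 0 of 8721 genes were called by age, with a lowest adjusted p of 0.310. With antibiotics, no gene of the 5 lists was called at either age.

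Over all cells of a pool, microglia included, 5 of the genes passed the filter and none was called. Of 9069 genes limma called 0% with antibiotics in young and 0.452% in aged pools, 0.684% with antibiotics in a fit of the ages jointly, 0% for the difference and 2.1% for age in controls, and 1, 1, 2, 0 and 0 of the 5 genes had an unadjusted p under 0.05. Such a mean mixes the number of cells of a type with their level. Ccr7 was 0.122, 0.122 and 0.106 in young control and 0.131, 0.175 and 0.253 in young antibiotic pools, with no overlap (0.47, SE 0.20, unadjusted p = 0.0356, adjusted p = 0.672, limma), as for 12.7% of all genes. Fscn1 was 1.44, 1.38 and 1.17 in aged control and 1.05, 1.22 and 0.868 in aged antibiotic pools, which overlapped (-0.34, SE 0.13, adjusted p = 0.266, limma). Of the wider lists, Batf3 (-0.32, SE 0.07, adjusted p = 0.0496), Irf8 (-0.26, SE 0.05, adjusted p = 0.0418) and Samsn1 (-0.26, SE 0.05, adjusted p = 0.0491) were called lower with antibiotics over both ages, and Klf4 (-0.71, SE 0.12, adjusted p = 0.0126) was lower with age. Microglia were 9403 of the 13052 cells in these means. Which cells carried the changes of these listed genes was not tested, so they are not read as changes of dendritic cells.

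The surface tags gave a readout that the RNA call had not used. Tags were summed per pool over the dendritic-called and over the other Ly6CLow cells and compared in all 12 pools by edgeR's quasi-likelihood method, the pool being a block. The Ly6CLow class outside the cDC2-like cluster was a mixture of clusters, as given above, so the cells compared against are not of 1 type. Of 34 antibodies 12 were called (35.3%), 4 higher and 8 lower. Without the factor that corrects for tag composition, 24 were called, 2 higher (I-A/I-E at 0.59 and CD11c at 0.53) and 22 lower, and CD44 turned from 0.29 to -0.28. With at least 4 genes needed for a call, which left 6 pools, 4 antibodies were called, and I-A/I-E (0.39) and CD11c (0.47) were not among them. Class II and CD11c, the surface molecules most used to recognise dendritic cells, were higher, and so was CD11b, an integrin of macrophages, monocytes and many cDC2. The macrophage and monocyte molecules CX3CR1, CD64, F4/80 and Ly6C were lower. The monocyte receptor CCR2 (-0.02, adjusted p = 0.970) and the macrophage molecule CD169 (-0.20, adjusted p = 0.176) did not pass.

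I-A/I-E, the class II molecule, gave 4753 ± 1233 tags per called cell and 2226 ± 523 per other Ly6CLow cell in young pools (SD, n = 6). In aged pools, where all tags were fewer, it gave 618 ± 120 and 183 ± 74.3. The log2 change relative to all tags was 1.16 (SE 0.19, adjusted p = 0.000376, edgeR), and its share of all tags was higher in 11 of 12 pools. CD11c, an integrin of dendritic cells, gave 473 ± 104 against 304 ± 98.1 tags in young and 70.0 ± 13.1 against 17.4 ± 7.23 in aged pools. Its change was 1.09 (SE 0.20, adjusted p = 0.000585), with a higher share in 9 of 12 pools, and in the 6 young pools alone it was 0.46 (adjusted p = 0.223).

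CX3CR1, the fractalkine receptor of microglia and monocytes, was lower in share in 12 of 12 pools, at -0.90 (SE 0.13, adjusted p = 0.000333, edgeR). It gave 41.4 ± 8.45 against 64.5 ± 4.87 tags per cell in young and 5.94 ± 2.35 against 8.36 ± 2.40 in aged pools. CD64, whose barcode is shown above with those of XCR1 and CD11c, was lower at -0.86 (SE 0.15, adjusted p = 0.000376), on 2.52 ± 0.719 against 4.82 ± 0.962 tags per cell in young pools. In aged pools it gave under 1 tag per cell in both sets, and fitted alone these pools gave -0.31 (adjusted p = 0.386). CD11b changed by 0.61 (SE 0.13, adjusted p = 0.00144, edgeR), on 2668 ± 434 against 1828 ± 170 tags per cell in young and 368 ± 80.6 against 151 ± 39.2 in aged pools. Its share of all tags was higher in 7 of 12 pools, and without the composition factor its change was 0.05 (adjusted p = 0.534). PD-L1 (-1.86, SE 0.32, adjusted p = 0.000376) and CD38 (-1.65, SE 0.28, adjusted p = 0.000376) fell in share in 12 of 12 pools. A fall in share in 12 of 12 pools was not particular to called antibodies. B220 (-0.29, adjusted p = 0.0799), Ly6G (-0.30, adjusted p = 0.165) and Siglec-H (-0.28, adjusted p = 0.150) had it too. CCR2 was lower in share in 11 of 12 pools at a change of -0.02.

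Other antibodies of dendritic lines did not pass. XCR1 changed by 0.35 (SE 0.23, adjusted p = 0.222, edgeR), CD103, an integrin of cDC1, by 0.13 (SE 0.63, adjusted p = 0.916) and CD172a, a mark of cDC2, by 0.08 (SE 0.13, adjusted p = 0.713). The cDC2-like cluster gave more I-A/I-E and CD11c tags per cell than the other Ly6CLow cells in 12 of 12 pools. In young pools its I-A/I-E ran from 3305 to 5176 tags per cell by pool, against 1192 to 3459. CD64 tags per cell were higher in the cluster in 0 of 6 young but 4 of 6 aged pools. Those of XCR1 were higher in 4 of 6 young and 6 of 6 aged pools. Called cells were also deeper in RNA, and the part of cell size in the tag numbers was not tested.

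**Figure D5:**
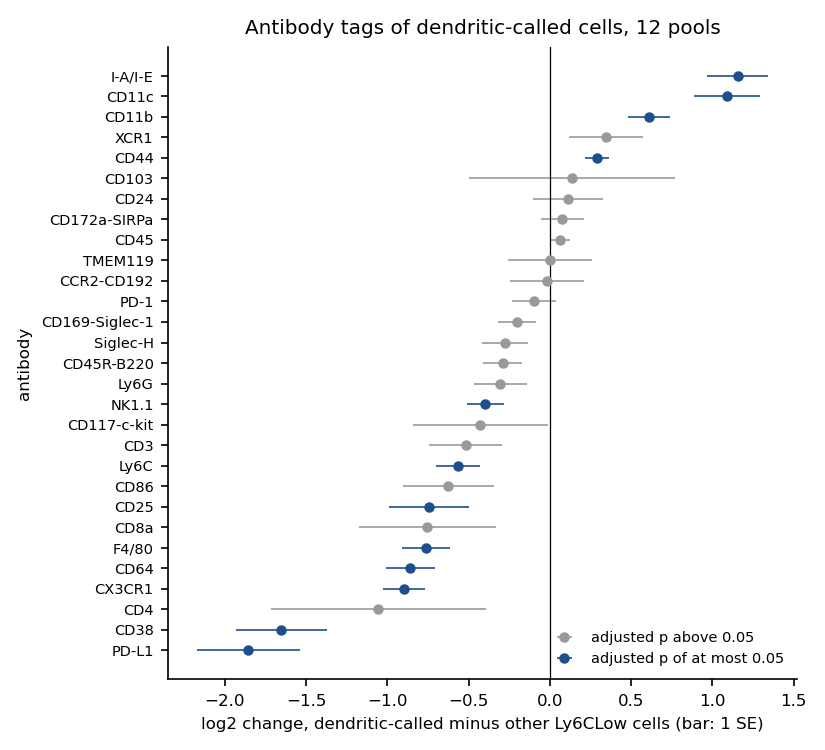
Log2 change of antibody tags between dendritic-called and other Ly6CLow cells over 12 pools (points, bars 1 SE) for the 29 antibodies with at least 500 tags in all, blue where the adjusted p is at most 0.05. I-A/I-E (1.16) and CD11c (1.09) lie farthest to the right and PD-L1 (-1.86) and CD38 (-1.65) farthest to the left.

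Plasmacytoid-like cells were described by tags without a test, as 10 pools held 1 to 7 of them. Siglec-H, a lectin of plasmacytoid cells and microglia, gave 10 to 59 tags per cell by pool in the 6 young pools, against 5.81 to 9.83 in the other BCells, and was higher in 6 of 6. In aged pools it was higher in 3 of 4. Ly6C was higher than in the other BCells in 6 of 6 young pools but in 1 of 4 aged pools. CD11b and I-A/I-E were lower than in the other BCells in 6 of 6 young and 4 of 4 aged pools. B220 was not compared, since the name of the class's gate includes it.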

How the data were processed

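RNA and antibody tags of single brain immune cells were read by 10x 3' CITE-seq. Per the submitters' processing notes, the authors used Cell Ranger 3.0.2 and Seurat 3.0.1 with mm10. The deposited RNA values are whole-number UMI values corrected by SCTransform, treated here as a score and not as raw counts. The antibody tags and the UMI and tag totals per cell were deposited by the authors as raw counts, with the class labels. How cells were selected is not given in the sources used here, and 25 metadata columns were not used.

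Values were averaged per pool (12 pools) and class. Genes with a mean of at least 0.05 were tested with limma 3.58.1 on log2(mean + 0.05), on which scale fold changes of low genes are understated, with Benjamini-Hochberg adjustment over all genes. Tags and cell numbers were tested with edgeR 4.0.16 (R 4.3.3), and DESeq2 1.42.0 was an alternative. Cells other than microglia (3649) were clustered with scanpy 1.11.5 (2000 variable genes without 64 immunoglobulin genes, 30 components, 15 neighbours, Leiden resolution 1, and 0.5 and 2 as alternatives). Single shares were compared by exact two-sided permutation tests. Limits for a count of 0 rest on 3 cells and, like all counts, cover counting error only. Pools are taken as replicates as labelled.

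All 10 genes are named, other genes by fixed lists. The genes and lists were chosen with earlier results of these data known. The scripts' tests were tested on simulated data. The authors labelled every cell a singlet, and no doublet caller was run.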

Additional observations from a re-analysis of the deposited data

How the results depend on the processing

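With antibiotics, no dendritic gene was called in Ly6CLow cells under any alternative run. For age in controls, leaving out 1 pool at a time gave 0 to 2 called genes. Of the antibodies, 24 were called without a composition factor, 4 when a call needed at least 4 genes, and 11 to 14 with 1 pool left out. With at least 2 genes per call, the share of called cells in aged antibiotic minus aged control pools was -2.05 percentage points. Of the 2052 cells so called 1436 were microglia (70.0%), against 46 of 325 with at least 3 genes. The -2.05 is therefore mostly a value of microglia, and the shares with at least 3 genes are those given above. Genes called by age in Ly6CLow cells numbered 65, 19 to 297 with 1 pool left out, 36 without the filter and 0 in cells of at least 2000 raw UMIs (436 at an unadjusted p under 0.05). CD44, called higher at 0.29, was -0.28 without a composition factor. Among the other named values no called one changed sign, while the uncalled change of the cDC2-like cluster with antibiotics ran from -0.16 to 0.48 in young and from -0.06 to 0.39 in aged pools with 1 pool left out. Of the other antibody values named, 7 fell below the threshold under an alternative, with the same direction. The cause of these changes was not tested. Alternatives within the cDC2-like cluster were added after seeing the data. No paired analysis was possible because the labels give the groups no shared replicate numbers. Few cells had Xcr1, Clec9a or Ccr9, which limits what can be said of these genes, and the part of depth in this was not tested. In aged pools the antibodies with few tags are limited by tag depth.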

Other observations

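Surface XCR1 was also read in the few cells with Xcr1 RNA. In cells other than microglia, the 5 young cells with Xcr1 RNA had a mean of 116 XCR1 tags (median 111), against 6.28 (median 6) in cells without it. The 8 aged cells had a mean of 18.0 against 1.61, with medians of 4.5 and 1. Per 1000 tags, XCR1 was higher in cells with Xcr1 RNA in 8 of the 9 pools that held such cells, and CD103 in 4 of 9.

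Across 107 groups of cells of 1 class in 1 pool, the genes whose level was most like that of Flt3 were Rnd3 (Pearson r 0.714), Rnase6 (0.704) and Cd74 (0.691). For Xcr1 they were Gcsam (0.707), Alx1 (0.646) and A530099J19Rik (0.622). These groups share libraries and depth, so the values are a description.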
